A study of Mus musculus with 9 samples.

Results

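Dendritic cell genes in mouse lung are described here through 9 genes, found by gene name in a deposited table of 32671 genes. They are the surface receptors Cd209a, Clec9a, Xcr1 and Siglech, the growth factor receptor Flt3, the transcription factors Zbtb46, Irf8 and Batf3, and the secreted phospholipase Pla2g2d. All 9 had a row in the table, and all 9 passed the filter on low counts that 20794 genes passed. Levels of Cd209a, Clec9a, Xcr1, Flt3, Siglech and Pla2g2d were low in each bleomycin library and higher in LNP replicates 1 and 2, whereas Batf3 and Zbtb46 did otherwise. Irf8 was only just under control in the bleomycin libraries and highest in all LNP libraries. The choice of the 9 genes drew on their levels in these same 3 groups, so their levels, folds and counts of calls are given as a description, with no p-value, and support nothing beyond it. They were thus selected on measured CPM and fold changes of these libraries.

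Dendritic cells take up antigen in tissues, carry it to lymph nodes and present it to T cells. Conventional type 1 cells (cDC1) depend on the transcription factors Irf8 and Batf3, carry Xcr1 and Clec9a and are known for presenting antigen of dead cells to CD8 T cells. Conventional type 2 cells (cDC2) depend in part on Irf4, and plasmacytoid cells (pDC), which carry Siglech, are known as a source of type I interferon. All of these arise under the cytokine Flt3 ligand, the product of Flt3l, which signals through Flt3.

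Polyadenylated RNA from whole lungs of day 21 was sequenced in wild-type C57BL/6 mice, with 3 libraries a group. Control mice had received saline. The bleomycin group had received bleomycin, a drug that breaks DNA and leaves the lung scarred. The LNP group had received bleomycin and also inhaled lipid nanoparticles (mCas9/gSting@DOPS LNPs), whose name gives the nuclease Cas9, a guide named for Sting and the phospholipid DOPS. No group of bleomycin-challenged mice given particles without the guide was used here, and the dose and timing of the particles are not given in the labels. The labels do not say whether the 3 samples of a group came from separate animals, so a p-value measures the spread between these samples, which may be technical.

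Totals of gene counts ran from 56047830 to 69404903. Values are in CPM, counts brought to a common library total with TMM scaling, with SD over n = 3 libraries after ± unless n is given, and fold changes are on the log2 scale with their SE. The gene after which the guide is named, Sting1, had 18.4 to 23.9 CPM in control, 40.5 to 53.8 CPM in bleomycin and 44.3 to 62 CPM in LNP libraries. LNP replicate 3 stood apart. Its 8 skeletal muscle markers summed to 7383 CPM, against 5.7 to 51 CPM in the other 8 libraries, and its 6 squamous epithelium markers to 1802 CPM, against 1.7 to 23.6 CPM. Fold changes of most members, and many of the counts, are therefore also given without it. Many values of single list genes include it. The part of the muscle and squamous tissue in the values of the 9 genes was not tested. Whole lung is a mixture, so fewer cells of a type and less RNA per cell cannot be told apart in any value below. Lung epithelium markers, 6 genes of which Scgb1a1 and the surfactant gene Sftpc were the largest, summed to 43524 to 55748 CPM in control, 15809 to 17520.4 CPM in bleomycin and 13233 to 31912 CPM in LNP libraries. After bleomycin 4 of them were called lower, while Ager was at 2999 to 3388 CPM, against 2292 to 3373 CPM in control.

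To show the DNA in front of genes on either side of control lung after bleomycin, the 250 bases before the start of Cd209a, Clec9a and Xcr1, 3 of the 7 members called lower, are printed beside those of Batf3, the 1 called higher. These 4 were chosen after their values were seen, and Pla2g2d and Siglech, which are not printed, had larger fold changes than Clec9a and Xcr1. They are from RefSeq on GRCm38.p6, run 5′ to 3′ in the direction of the gene, and lie at chr8:3748985-3749234 on the minus strand for Cd209a, chr6:129408612-129408861 on the plus strand for Clec9a, chr9:123862030-123862279 on the minus strand for Xcr1 and chr1:191098164-191098413 on the plus strand for Batf3. Capitals mark the letters TATAAA and GGGCGG on either strand, so TTTATA is TATAAA on the opposite strand.
Cd209a: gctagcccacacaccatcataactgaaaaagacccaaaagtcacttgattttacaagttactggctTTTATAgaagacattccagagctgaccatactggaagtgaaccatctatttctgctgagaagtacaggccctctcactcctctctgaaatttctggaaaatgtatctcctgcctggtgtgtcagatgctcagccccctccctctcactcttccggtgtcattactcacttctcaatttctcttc
Clec9a: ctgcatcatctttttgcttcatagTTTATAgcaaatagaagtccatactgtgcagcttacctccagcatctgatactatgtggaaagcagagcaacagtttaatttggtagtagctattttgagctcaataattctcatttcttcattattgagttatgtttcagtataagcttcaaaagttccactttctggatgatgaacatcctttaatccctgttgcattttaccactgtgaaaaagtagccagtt
Xcr1: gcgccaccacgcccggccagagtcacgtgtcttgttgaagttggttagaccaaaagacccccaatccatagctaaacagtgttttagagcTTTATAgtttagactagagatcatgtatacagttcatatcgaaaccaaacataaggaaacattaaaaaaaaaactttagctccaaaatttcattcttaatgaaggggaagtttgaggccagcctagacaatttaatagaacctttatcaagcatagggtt
Batf3: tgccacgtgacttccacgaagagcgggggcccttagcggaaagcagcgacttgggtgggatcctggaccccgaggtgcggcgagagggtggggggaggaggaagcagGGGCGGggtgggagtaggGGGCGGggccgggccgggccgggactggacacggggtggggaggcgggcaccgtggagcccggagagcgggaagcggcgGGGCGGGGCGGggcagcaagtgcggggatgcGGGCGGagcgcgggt

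The share of G and C was 44.8% for Cd209a, 35.6% for Clec9a and 38.8% for Xcr1. The other members called lower after bleomycin lay at 39.6% (Pla2g2d), 50.8% (Siglech), 51.6% (Zbtb46) and 59.2% (Flt3), so the 7 spread from 35.6% to 59.2% on both sides of the median of all promoters. Batf3 was at 76%, and the 2 starts of Irf8 at 67.2% and 54%. The median over 32851 promoters was 52.4%, with the 10th and 90th percentiles at 38.8% and 69.2%. Batf3 held GGGCGG at 5 places, of which the 2 at 46 and 41 bases before the start share a base, while 32.7% of all promoters held it at least once. TATAAA was present once each in Cd209a, Clec9a and Xcr1, at 184, 226 and 160 bases before the start, in 1 window of Irf8 at 31 bases before the start, and in 12.4% of all promoters. GGGCGG was also present in that window of Irf8 and in Pla2g2d. All 9 members matched, with 10 windows. The composite element of interferon regulatory and Ets factors (EICE, in 2.3% of all promoters), the interferon-stimulated response element (ISRE, in 2.98%) and the AP-1 letters TGANTCA (in 6.75%) were searched on both strands too. Among the 10 windows, that of Zbtb46 alone held one of these, TGANTCA at 61 bases before the end of the window. This window, chr2:181424389-181424638 on the minus strand, lies inside the gene. The main Zbtb46 transcripts described below start at base 181459426, so it is not the DNA before their start. The share of G and C given for Zbtb46 is of this window too. Matches are a description of letters in these windows, not of sites in use.

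Of the members, 7 were called lower in bleomycin than in control lung and 1 higher, where 18.5% and 15.2% of all tested genes were called lower and higher by the same test. Their median log2 fold change was -2.19, beside -0.05 over all tested genes. Against bleomycin, 5 members were called higher in LNP lung, where 4.28% of all genes were called higher, and none lower, where 1.87% were (edgeR's quasi-likelihood test, with 0 at an unadjusted p under 0.05 and 0 in DESeq2). The median was 1.81, beside 0.04 over all genes. Against control, 2 members were called higher in LNP lung and 1 lower, where 4.95% and 3.08% of all genes were, with a median of 0.31 beside -0.00 over all genes. Since the members were chosen with these contrasts known, the counts are a description. Markers of T and NK cells differed in the same directions as most members. All 11 were lower after bleomycin and 8 were called higher in LNP against bleomycin lung, with sums of 91.2 to 98.9 CPM in control, 22.9 to 24.5 CPM in bleomycin and 72.6 to 105 CPM in LNP libraries. Ncr1, an NK cell receptor gene, was at 0 in LNP replicate 3, and no other of the 11 was at 0 in a library. Their part in the levels of the members was not tested.

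Leaving out LNP replicate 3 left the bleomycin counts at 7 lower and 1 higher. It raised the LNP against bleomycin count to 7 higher with Clec9a and Siglech added. Against control lung it gave 3 members higher and 0 lower, with Flt3 added and the call of Zbtb46 lost. The shares of all genes called in those fits were 22.1% lower and 20.5% higher for bleomycin, 14% higher and 10.7% lower for LNP against bleomycin, and 6.41% higher and 4.51% lower for LNP against control. Of the LNP against bleomycin calls, 0 were left without bleomycin replicate 1 and 0 without bleomycin replicate 2, 2 without bleomycin replicate 3, 2 without LNP replicate 1, 1 without LNP replicate 2 and 3 without control replicate 3. The count of members lower after bleomycin was 4 without control replicate 3, bleomycin replicate 1 or bleomycin replicate 2. The share of all genes called was counted for none of these fits. A loss of calls among all genes thus cannot be told from one among the members. By member, with 1 library left out, the call lower after bleomycin held in 9 of 9 fits for Cd209a, Siglech and Pla2g2d. It held in 8 for Xcr1, 6 for Clec9a, 4 for Flt3 and 2 for Zbtb46. Batf3 was called higher in all 9. The LNP against bleomycin call held in 6 for Irf8, 5 for Flt3 and Pla2g2d, 4 for Cd209a and 1 for Xcr1. Against control, the LNP call held in 9 for Batf3, 5 for Irf8 and 1 for Zbtb46.

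**Figure D1:**
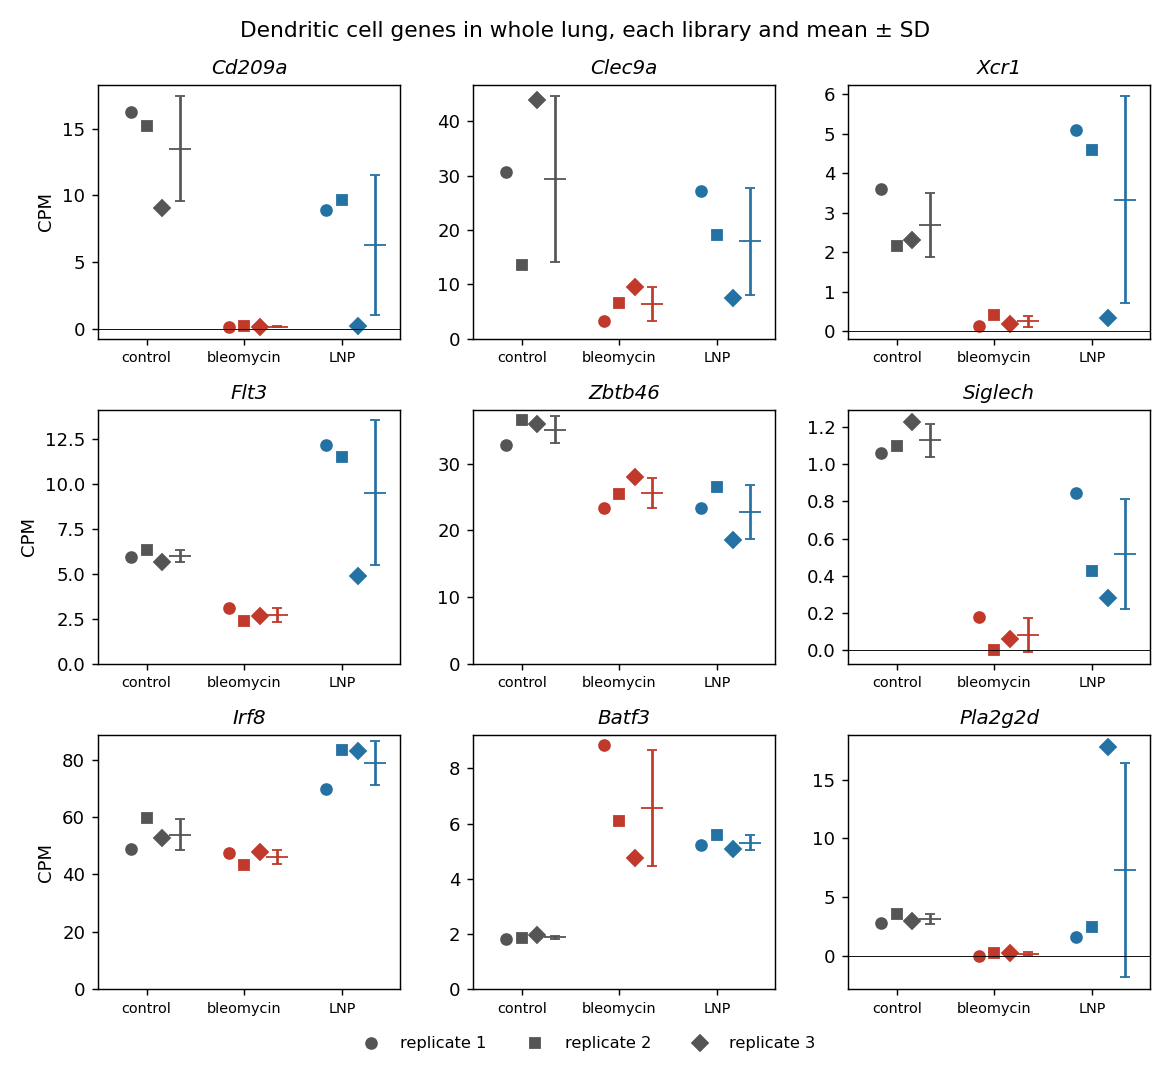
Level of each of the 9 genes in CPM on the vertical axis, by group on the horizontal axis, with 1 symbol per library and the mean ± SD of 3 libraries beside it. LNP replicate 3, the diamond, sits at 0.209 CPM for Cd209a and 0.331 CPM for Xcr1, far under the other LNP libraries, and at 17.8 CPM for Pla2g2d, far above them.

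Among the surface receptors, Cd209a had the largest fold changes between bleomycin lung and either other group. It encodes the mouse relative of the human lectin DC-SIGN, known from monocyte-derived and type 2 dendritic cells, and spans 3793397 to 3798984 of chromosome 8, minus strand (ENSMUSG00000031494), in coordinates of the deposited table, with the build not given in the sources used here. Control libraries held 16.3, 15.2 and 9.02 CPM, bleomycin libraries 0.115, 0.155 and 0.151 CPM and LNP libraries 8.94, 9.69 and 0.209 CPM. Every bleomycin library was far under every control library. LNP replicates 1 and 2 reached the lower end of the control range, and LNP replicate 3 stayed just above the bleomycin libraries. The group means were 13.5 ± 3.93 CPM in control and 0.14 ± 0.0223 CPM in bleomycin, a log2 fold change of -6.57 ± 1.14. For LNP the mean was 6.28 ± 5.27 CPM over 3 libraries and 9.31 ± 0.53 CPM over replicates 1 and 2, which lay 44.6-fold above replicate 3. The log2 fold change of LNP over bleomycin was 5.46 ± 1.10 with all libraries and 6.03 ± 0.32 without replicate 3, and that of LNP over control was -1.10 ± 0.86 and -0.50 ± 0.25. In counts, Cd209a had 631 to 1003 per control library and 7 to 10 per bleomycin library, so the bleomycin levels rest on few reads.

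Clec9a encodes a receptor of cDC1 that recognises actin exposed by dead cells. It spans 129385825 to 129401726 of chromosome 6, plus strand (ENSMUSG00000046080). In control libraries it stood at 30.6, 13.6 and 44 CPM, after bleomycin at 3.24, 6.52 and 9.51 CPM and in LNP libraries at 27.1, 19.1 and 7.49 CPM. Control values spread 3.23-fold between the lowest and the highest, and the lowest, control replicate 2, was still above every bleomycin library. LNP replicates 1 and 2 were within the control range only through control replicate 2, being under control replicates 1 and 3. LNP replicate 3 was within the bleomycin range. The log2 fold changes were -2.19 ± 0.57 for bleomycin over control, 1.48 ± 0.55 for LNP over bleomycin and -0.72 ± 0.54 for LNP over control. Without LNP replicate 3 the last pair were 1.85 ± 0.48 and -0.31 ± 0.49, and without control replicate 2 the first was -2.54 ± 0.56. In the table Clec9a shares 474 bases with the platelet lectin gene Clec1b and 594 bases with Gm43914 on the same strand, so reads of these genes may be counted for one another. Clec1b was at 5.17, 7.34 and 8.25 CPM in control, 1.23, 4.41 and 5.11 CPM in bleomycin and 4.23, 1.6 and 4.48 CPM in LNP libraries, and Gm43914 at no more than 0.555 CPM in any library.

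Xcr1 encodes the receptor through which cDC1 follow the chemokine Xcl1 of T and NK cells. It spans 123681380 to 123691094 of chromosome 9, minus strand (ENSMUSG00000060509), where 1071 bases overlap Gm57030 on the other strand. Use of the strand in counting was not given in the sources used here. Levels were 3.61, 2.16 and 2.3 CPM in control, 0.147, 0.419 and 0.196 CPM in bleomycin and 5.08, 4.58 and 0.331 CPM in LNP libraries. LNP replicates 1 and 2 were above all control libraries, and replicate 3 was within the bleomycin range, 14.6-fold under the other LNP libraries. Its fold change was -3.39 ± 0.85 on the log2 scale for bleomycin over control and 3.70 ± 0.86 for LNP over bleomycin, and without LNP replicate 3 they were -3.35 ± 0.40 and 4.24 ± 0.43. LNP over control was 0.31 ± 0.75 with all libraries and 0.88 ± 0.38 without replicate 3.

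The cDC1 receptors did not keep a fixed ratio. In FPKM, which divides by gene length and library total, Clec9a was 11.5, 8.5 and 25.9 times Xcr1 in control, 31.3, 21.7 and 66.5 times in bleomycin and 7.21, 5.65 and 30.7 times in LNP libraries. LNP replicates 1 and 2 were under all control libraries in this ratio, and LNP replicate 3 lay among the bleomycin libraries. Bleomycin and control libraries overlapped. In bleomycin libraries, Xcr1 averaged 0.0488 ± 0.0284 FPKM, so the denominator there is small.

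Siglech encodes a sialic acid-binding lectin of pDC. It spans 55417926 to 55428581 of chromosome 7, plus strand (ENSMUSG00000051504) and had the fewest reads of the 9 genes. Control libraries had 65, 73 and 86 counts of it (1.06, 1.1 and 1.23 CPM), bleomycin libraries 11, 0 and 4 counts (0.18, 0 and 0.0605 CPM) and LNP libraries 61, 26 and 16 counts (0.847, 0.426 and 0.279 CPM). The groups did not overlap, with control highest, LNP between and bleomycin lowest, and LNP replicate 3 was the LNP library nearest to bleomycin. The log2 fold changes were -3.80 ± 0.89 for bleomycin over control, 2.68 ± 0.88 for LNP over bleomycin and -1.12 ± 0.77 for LNP over control. Without LNP replicate 3 they were -3.77 ± 0.79, 2.98 ± 0.83 and -0.79 ± 0.76.

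Flt3, the receptor of Flt3 ligand, is carried by dendritic cells and their precursors. The gene spans 147267551 to 147337299 of chromosome 5, minus strand (ENSMUSG00000042817). Its level was 5.95, 6.33 and 5.69 CPM in control, 3.11, 2.36 and 2.68 CPM in bleomycin and 12.2, 11.5 and 4.88 CPM in LNP libraries. Control libraries were nearly level with each other. LNP replicates 1 and 2 exceeded every control library, while LNP replicate 3 lay between the control and bleomycin libraries. The log2 fold change was -1.14 ± 0.32 for bleomycin over control, 1.81 ± 0.33 for LNP over bleomycin and 0.67 ± 0.32 for LNP over control. Without LNP replicate 3 these were -1.11 ± 0.17, 2.13 ± 0.19 and 1.02 ± 0.18.

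The ligand gene Flt3l, which is not a member, fell from 34 ± 4.59 CPM in control to 11.5 ± 1.08 CPM in bleomycin (log2 fold change -1.57 ± 0.16, adjusted p = 0.00022), and was called in all 9 fits that left out 1 library. Control libraries held 29.3, 38.5 and 34.3 CPM, bleomycin libraries 10.3, 11.7 and 12.4 CPM and LNP libraries 22.9, 20.1 and 18.5 CPM. The groups did not overlap, and LNP replicate 3 was close to the other LNP libraries. LNP lung was higher than bleomycin lung by 0.83 ± 0.16 (adjusted p = 0.019, and 0.0031 without LNP replicate 3) and lower than control lung, at -0.73 ± 0.15 (adjusted p = 0.019). With 1 library left out, these calls held in 5 and 7 of 9 fits. Receptor and ligand thus differed in where LNP replicates 1 and 2 stood, with Flt3 above and Flt3l under the control libraries.

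Irf8, an interferon regulatory factor that cDC1 and pDC depend on and that B cells and macrophages express too, spans 121463097 to 121483433 of chromosome 8, plus strand (ENSMUSG00000041515). Levels were 49, 59.7 and 52.7 CPM in control, 47.4, 43.4 and 47.8 CPM in bleomycin and 69.9, 83.3 and 83 CPM in LNP libraries. Every LNP library, replicate 3 included, was above every other library. Bleomycin libraries were only just under the control libraries. On the log2 scale the fold change was -0.22 ± 0.13 for bleomycin over control, 0.77 ± 0.13 for LNP over bleomycin and 0.55 ± 0.13 for LNP over control. Leaving out LNP replicate 3 gave -0.19, 0.73 and 0.55.

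Batf3, the basic leucine zipper partner of Irf8 in cDC1, is also expressed by activated T cells and spans 190830044 to 190841142 of chromosome 1, plus strand (ENSMUSG00000026630). It was the only member that was higher in bleomycin than in control lung. Levels were 1.81, 1.85 and 1.94 CPM in control, 8.85, 6.08 and 4.75 CPM in bleomycin and 5.22, 5.6 and 5.07 CPM in LNP libraries. All bleomycin and LNP libraries were above all control libraries, and the LNP libraries lay inside the bleomycin range. The means were 1.87 ± 0.0691, 6.56 ± 2.09 and 5.3 ± 0.272 CPM. Fitted log2 fold changes were 1.81 ± 0.26 for bleomycin over control, -0.31 ± 0.25 for LNP over bleomycin and 1.50 ± 0.25 for LNP over control. Batf3 and the receptors of the cells that need it therefore stood on opposite sides of control after bleomycin.

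Zbtb46, a zinc finger factor of conventional dendritic cells that endothelial cells express as well, spans 181029555 to 181101219 of chromosome 2, minus strand (ENSMUSG00000027583). It was at 32.8, 36.6 and 35.9 CPM in control, 23.4, 25.5 and 28 CPM in bleomycin and 23.3, 26.5 and 18.5 CPM in LNP libraries. Control libraries were above all others, and no LNP library was above the bleomycin range. Fitted on the log2 scale, its fold change was -0.45 ± 0.16 for bleomycin over control, -0.17 ± 0.16 for LNP over bleomycin and -0.62 ± 0.16 for LNP over control, and without LNP replicate 3 it was -0.42 ± 0.12, -0.04 ± 0.14 and -0.46 ± 0.14. Between control and bleomycin lung, most endothelial markers moved in the same direction. Of 10, 6 were called lower and 1 higher in bleomycin than in control lung, and their sum was 4538 to 5367 CPM in control, 3512 to 3782 CPM in bleomycin and 2406 to 3810.4 CPM in LNP libraries, the lowest being LNP replicate 3. In LNP replicates 1 and 2, Kdr, Pecam1, Cdh5, Emcn, Gja5, Tek and Ednrb were above every bleomycin library, which Zbtb46 was not. Vwf was under every bleomycin library there, and Cldn5 and Sox17 were within the bleomycin range. None of the 10 endothelial markers was at 0 in any library, and their part in the level of Zbtb46 was not tested.

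The transcripts of Zbtb46 gave a measure that the choice of members did not use. The full-length transcript ENSMUST00000029106 has 5 exons, 5309 bases and a coding sequence for 600 residues in GENCODE on GRCm38. ENSMUST00000087409 starts at the same base, ends after 3 exons with 2577 bases and codes for 434 residues. The full-length transcript held 90.9%, 88.5% and 91.2% of Zbtb46 counts in control libraries, 62%, 66% and 67.9% after bleomycin and 83.1%, 82.8% and 65% in LNP libraries. The shorter one held 8.86%, 11% and 8.33%, then 36.1%, 33.1% and 30.7%, then 16.1%, 16.7% and 32%. Control and bleomycin libraries did not overlap for either transcript, and LNP replicate 3 lay among the bleomycin libraries while replicates 1 and 2 lay between the groups. The mean share of the shorter transcript was 9.41% ± 1.44 in control and 33.3% ± 2.69 in bleomycin (exact two-sided permutation p = 0.1, the smallest that 3 against 3 libraries allow). For LNP it was 21.6% ± 9.03 (exact permutation p = 0.2 against bleomycin and 0.1 against control).

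In CPM, the full-length transcript was lower in bleomycin lung, at 16.8 ± 2.27 against 31.6 ± 1.58 in control, while the shorter transcript was higher, at 8.49 ± 0.105 against 3.31 ± 0.634. These levels add up to nearly the gene level on which the choice of members drew, so they are a description. LNP lung had 17.8 ± 5.18 CPM of the full-length and 4.69 ± 1.1 CPM of the shorter transcript. Replicate 3 was the LNP library with the least of the first, 12 CPM, and the most of the second, 5.9 CPM. The gene total thus hid opposite differences of the 2 transcripts. Transcript counts are estimates that divide reads of shared exons, and their derivation was not given in the sources used here.

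**Figure D2:**
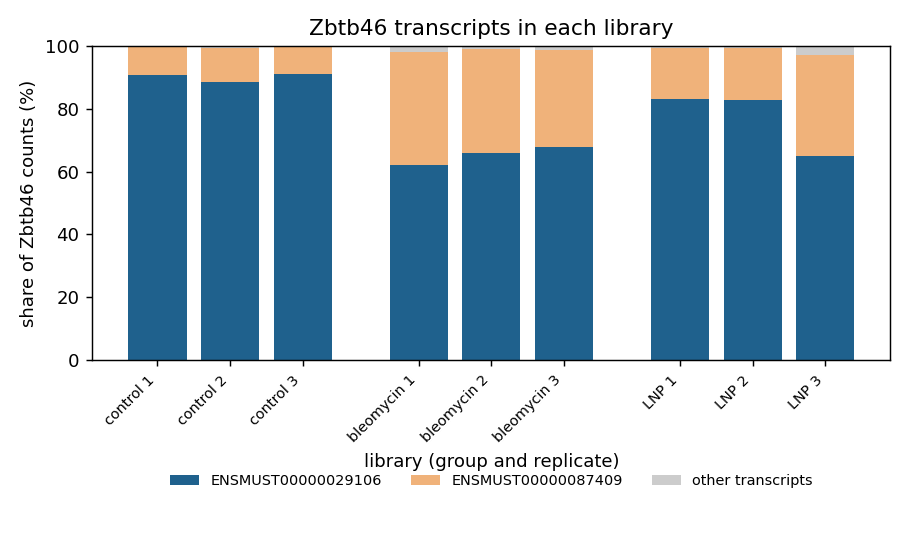
Share of Zbtb46 counts, in percent on the vertical axis, held by ENSMUST00000029106 (bottom), ENSMUST00000087409 (middle) and all other transcripts (top), with 1 bar per library. The shorter transcript takes 8.33% to 11% of the bar in control, 30.7% to 36.1% in bleomycin and 16.1%, 16.7% and 32% in LNP libraries.

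Xcr1 has 1 transcript in the table. For 5 other members 1 transcript held nearly all counts over the 9 libraries, namely 96.9% for Cd209a, 99.9% for Clec9a, 99.7% for Flt3, 97.8% for Irf8 and 94.6% for Pla2g2d. Batf3 counts were spread over 5 transcripts, with ENSMUST00000027943 at 58.4% ± 9.46 in control libraries, 52.5% ± 6.75 after bleomycin and 51.1% ± 23.8 in LNP libraries, so the groups overlapped. Siglech counts were spread over 7, the largest with 38.9%, and its few reads give no usable shares in bleomycin lung.

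Pla2g2d encodes a secreted phospholipase A2 known from dendritic cells and macrophages of lymphoid tissue. It spans 138503046 to 138509357 of chromosome 4, plus strand (ENSMUSG00000041202). Levels were 2.82, 3.59 and 3 CPM in control, 0, 0.248 and 0.227 CPM in bleomycin and 1.58, 2.46 and 17.8 CPM in LNP libraries. Here LNP replicate 3 was the highest of all libraries, at 8.84 times the mean of the other LNP libraries, which both lay under the control range. The same library was the lowest LNP library for Cd209a, Clec9a, Xcr1, Flt3, Siglech and Zbtb46. It was also the lowest for Batf3, by little, at 5.07 CPM beside 5.22 and 5.6 CPM. The log2 fold change was -4.28 ± 1.10 for bleomycin over control and 5.49 ± 1.14 for LNP over bleomycin, and 3.64 ± 0.71 for the latter without LNP replicate 3. LNP over control changed sign with that library, from 1.21 ± 0.91 with it to -0.60 ± 0.64 without it. Markers of lymph node stroma differed in the same library. The sum of 7 was 129 CPM in LNP replicate 3, against 18.7 to 21.7 CPM in control, 32 to 42.8 CPM in bleomycin, and 20.9 and 23.1 CPM in the other LNP libraries. Cxcl13 made up 117 CPM of it, and Glycam1, a lymph node vessel gene at 0 in all control and bleomycin libraries, was at 2.91 CPM. Madcam1, Tnfsf11 and Fcamr were at their highest there too. Chst4 went the other way, with its lowest level of all libraries, 3.61 CPM. Cr2, at 1.52 CPM, was under the control and the other LNP libraries. Thymus markers summed to 2.79 CPM in that library, within the 2.04 to 3.52 CPM of the others, and Ccl25 made up 2.2 CPM of it. Foxn1 was at its highest there, with 0.592 CPM. Ptcra and Psmb11, at 0 there, did not exceed 0.115 CPM in any library. The part of such tissue in the level of Pla2g2d was not tested.

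**Figure D3:**
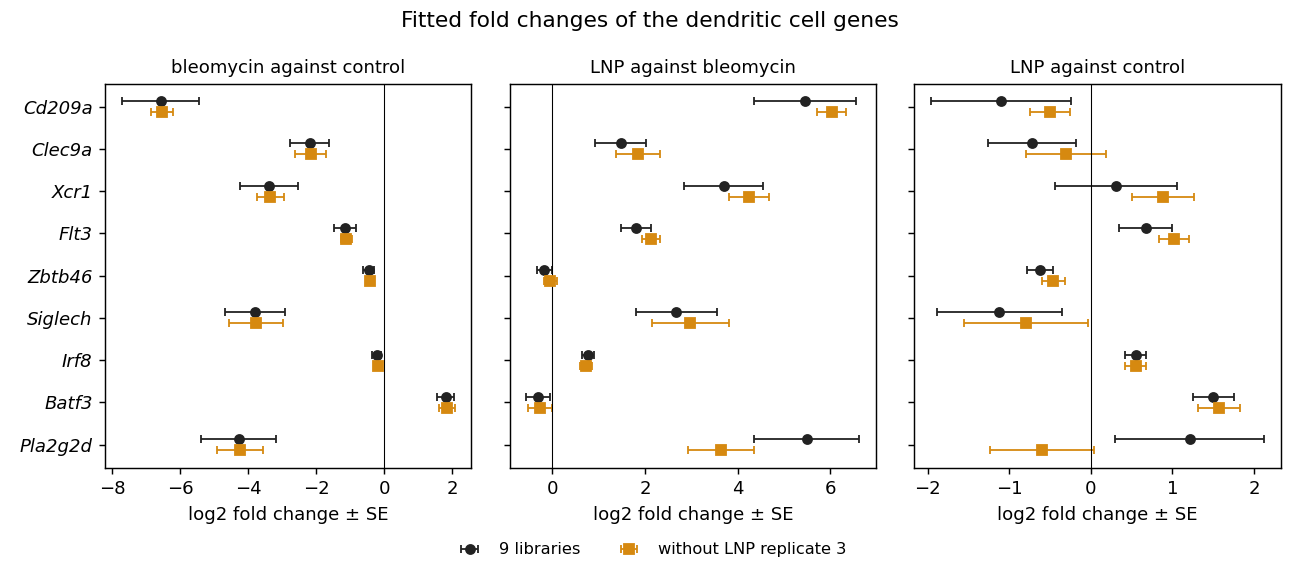
Fitted log2 fold change ± SE of each of the 9 genes on the horizontal axis, in 1 panel per comparison, with all 9 libraries (circles) and without LNP replicate 3 (squares). Bleomycin against control differs little between the fits, from -6.57 to 1.81 with all libraries. Pla2g2d goes from 1.21 to -0.60 in LNP against control.

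Across genes, only levels per length can be set side by side. In control lung the FPKM was 8.33 ± 4.53 for Clec9a, 7.81 ± 2.2 for Cd209a, 7 ± 0.45 for Irf8, 3.79 ± 0.189 for Zbtb46, 1.28 ± 0.11 for Pla2g2d, 1.06 ± 0.0708 for Batf3, 0.89 ± 0.0165 for Flt3, 0.557 ± 0.177 for Xcr1 and 0.297 ± 0.032 for Siglech. The first 3 did not differ beyond their spread. In bleomycin lung the order was Irf8 at 5.75 ± 0.395, Batf3 at 3.56 ± 0.972, Zbtb46 at 2.65 ± 0.361 and Clec9a at 1.74 ± 0.911, with Cd209a down at 0.0743 ± 0.0155 FPKM. The 3 transcription factors were thus the highest there, but Batf3 and Zbtb46, and Zbtb46 and Clec9a, did not differ beyond their spread. In LNP replicates 1 and 2 (n = 2), Irf8 at 10.4 ± 1.33, Clec9a at 6.73 ± 1.62 and Cd209a at 5.64 ± 0.339 FPKM were the 3 highest, as in control lung.

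Across the 9 libraries, which share the group differences, log2 CPM of Cd209a and Xcr1 had Pearson r = 0.96, and Cd209a and Clec9a, and Clec9a and Xcr1, r = 0.86 each. Batf3 had a negative r with 7 of the other 8 members, down to -0.81 with Zbtb46. Irf8 and Flt3 had r = 0.74. The genes nearest in pattern, by the highest r among all tested genes with a name, were C2cd3 (0.996), Tmem132c (0.995) and Lyz1 (0.994) for Cd209a, Zfp60 (0.993), Gpatch11 (0.988) and Dleu2 (0.983) for Clec9a, and Gimap9 (0.984), Ankrd65 (0.982) and Erich2os (0.981) for Xcr1. For Flt3 they were H2-DMa (0.989) and Cd74 (0.988), which serve MHC class II presentation, and Slamf8 (0.981). Zbtb46 was nearest to Ubn1 (0.978), Arhgap31 (0.962) and Dnase1 (0.959), Siglech to Ccdc89 (0.980), Lonrf2 (0.978) and Sstr4 (0.973), and Irf8 to Ass1 (0.973), Calhm6 (0.966) and Ccdc136 (0.946). Batf3 was nearest to Ctps1 (0.986), the monocyte chemokine gene Ccl7 (0.985) and Relb (0.985), and Pla2g2d to Jhy (0.976), Carmil2 (0.975) and Prkcq (0.974). With 9 points from 3 groups such values describe these libraries only.

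The wider dendritic cell programme was read from 9 lists of other genes, 103 of which were tested. After bleomycin 44 of them were lower (42.7%) and 23 higher (22.3%), with a median log2 fold change of -0.82, where 18.5% and 15.2% of all tested genes were lower and higher. LNP lung had 27 higher (26.2%) and 1 lower (0.971%) than bleomycin lung, with a median of 0.74, where 4.28% and 1.87% of all genes were. Against control lung 17 were higher (16.5%) and 4 lower (3.88%), with a median of 0.37, where 4.95% and 3.08% of all genes were. The count of genes higher in LNP than in bleomycin lung moved most with single libraries. It was 49 without LNP replicate 3, 9 without LNP replicate 1, 11 without LNP replicate 2, 10 without bleomycin replicate 1, 5 without bleomycin replicate 2 and 16 without bleomycin replicate 3. The genes lower after bleomycin numbered 26 without bleomycin replicate 2, and those higher in LNP than in control lung 32 without LNP replicate 3. Adjusted p-values below are over all tested genes. The lists, like the members, were chosen with earlier results of these data known. Their counts, shares and p-values are therefore a description and no independent support for the pattern of the members.

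Other cDC1 genes were lower in 6 of 15 cases after bleomycin and higher in 2, with a median of -0.70. Of all tested genes 18.5% were lower and 15.2% higher, so the 2 higher are near the common share. Gcsam fell from 1.51 ± 0.368 to 0.198 ± 0.0127 CPM (-2.91 ± 0.66, adjusted p = 0.0084), Cd207, the Langerin gene, from 1.59 ± 0.33 to 0.0218 ± 0.0378 CPM (adjusted p = 0.012), and Wdfy4, needed for cross-presentation, from 38.8 ± 5.91 to 17.7 ± 3.27 CPM (-1.13 ± 0.29, adjusted p = 0.016). Gpr33 had 56 counts over the control libraries and none in bleomycin libraries, and was at least 18-fold lower, taking 3 counts over the bleomycin group as the floor. Itgae, the CD103 gene, and Tlr11 completed the 6. Nfil3, a factor that acts early in cDC1 development and is expressed by many cells, went the other way, from 14.7 ± 6.15 to 94.2 ± 39.6 CPM (2.68 ± 0.54, adjusted p = 0.0048), as did Ifi205 (2.26 ± 0.41, adjusted p = 0.0029). Of the 9 fits that left out 1 library, Wdfy4 was called lower in 6, Gpr33 in 4, Itgae in 3 and Tlr11 in 2.

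In LNP lung, 3 cDC1 genes stood higher than in bleomycin lung, with a median of 0.61 over the 15. Wdfy4 was at 62.1, 62.5 and 27.5 CPM in LNP libraries against 14.3, 18 and 20.8 CPM in bleomycin libraries (1.52 ± 0.30, adjusted p = 0.021). Itgae was at 13.4, 12.5 and 2.87 CPM against 2.18, 2.05 and 2.27 CPM (2.15 ± 0.47, adjusted p = 0.03), and Gcsam rose by 3.52 ± 0.67 (adjusted p = 0.02). These calls were lost in many fits that left out 1 library. Wdfy4 was called in 5 of 9, Gcsam in 4 and Itgae in 2, those without control replicate 2 and without LNP replicate 3. In each, LNP replicate 3 was close to the bleomycin libraries, as it was for Clec9a and Xcr1. Without it 10 of the 15 were higher and 1, Nfil3, lower. Against control lung 1 was called higher, Ifi205 (1.70 ± 0.40, adjusted p = 0.031, and in 5 of 9 such fits), and without LNP replicate 3 5 were, with Itgae, Rab7b, Wdfy4 and Gcsam added.

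The cDC2 genes split after bleomycin, with 4 of 9 tested higher and 4 lower (median 0.76). Irf4, a transcription factor on which the type depends in part, fell from 8.09 ± 0.541 to 1.49 ± 0.469 CPM (-2.44 ± 0.30, adjusted p = 0.00054). Mgl2, a lectin, fell from 29.8 ± 6.88 to 6.84 ± 1.25 CPM (-2.12 ± 0.58, adjusted p = 0.02, called in 5 of 9 fits that left out a library). Those that rose were Sirpa, Itgam (1.87 ± 0.28, adjusted p = 0.0011) and Clec4a2 (1.98 ± 0.17, adjusted p = 0.00012), which monocytes and macrophages express too, and Tnip3 (2.61 ± 0.35, adjusted p = 0.0007). Of 12 monocyte and macrophage markers, 9 rose and 1 fell, with a sum of 288 to 339 CPM in control, 1787 to 1886 CPM in bleomycin and 1101 to 2328 CPM in LNP libraries, and none was at 0. Their part in these rises was not tested. Irf4 was the cDC2 gene called higher in LNP than in bleomycin lung, at 9.24 ± 2.79 CPM (2.63 ± 0.31, adjusted p = 0.0026). Without LNP replicate 3 its log2 fold change was 2.37. Its LNP libraries held 7.16, 8.15 and 12.4 CPM. Mgl2 had 31.5, 38.6 and 4.93 CPM there and Hepacam2 4.39, 3.01 and 0.383 CPM, so replicate 3 was highest for Irf4 and lowest for these. B cell markers, given below, differed in the same directions as Irf4. The part of B cells in its level was not tested. Clec4a2, Tnip3, Sirpa and Itgam were higher in LNP than in control lung, Itgam in 3 of 9 fits that left out a library. Without LNP replicate 3, Mgl2 and Hepacam2 were also higher and Itgam and Clec10a lower in LNP than in bleomycin lung.

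Of the pDC genes, 7 of 14 tested were lower and 3 higher after bleomycin (median -1.36). Among all tested genes 18.5% were lower and 15.2% higher. Spib, an Ets factor of pDC and B cells, fell from 14.8 ± 3.6 to 0.911 ± 0.134 CPM (-4.02 ± 0.26, adjusted p = 3.8e-05). Smim5, Ly6d, Pacsin1, Cox6a2, Ccr9 and Tlr9 fell too, while Irf7, an interferon-induced factor, rose by 1.95 ± 0.27 (adjusted p = 0.00077) with Runx2 and Tlr7. With 1 library left out, Tlr9 was called lower in 7 of 9 fits, Cox6a2 and Pacsin1 in 6 and Ccr9 in 5. Cox6a2 was at 18.3, 28 and 17.9 CPM in control and 2.75, 4.87 and 6.95 CPM in bleomycin libraries. In LNP libraries it was at 8.04, 6.69 and 35.8 CPM. The 8 skeletal muscle markers summed to 33.1 to 51 CPM in control and 5.7 to 12.5 CPM in bleomycin libraries. In LNP replicates 1, 2 and 3 their sums were 9.01, 8.48 and 7383 CPM. The part of muscle in the level of Cox6a2 was not tested. In LNP lung 5 pDC genes were higher than in bleomycin lung (median 0.82). Spib was at 16.7, 18.5 and 13.4 CPM (4.15 ± 0.26, adjusted p = 5.3e-05), a level that overlapped the control libraries at 17, 16.7 and 10.6 CPM. Ly6d (3.03 ± 0.47, adjusted p = 0.011), Pacsin1, Smim5 and Tlr9 were the others. With 1 library left out, Ly6d was called in 8 of 9 fits, Pacsin1 in 5, Smim5 in 2 (those without control replicate 1 and without LNP replicate 3) and Tlr9 in 1, the one without LNP replicate 3. In LNP replicate 3 each of these 5 genes was above every bleomycin library, and Ly6d and Pacsin1 were at their highest there, with 32.1 and 2.65 CPM. Without that library 6 were higher and Tlr7, Runx2 and Irf7 lower. B cell markers moved alike. All 10 were lower after bleomycin and 9 were called higher in LNP against bleomycin lung, with sums of 150.2 to 210.1 CPM in control, 20.5 to 24 CPM in bleomycin and 185 to 189 CPM in LNP libraries and none at 0. Spib and Ly6d are expressed by B cells, and their part was not tested. LNP replicate 3, where Ly6d was highest, also had the most of the squamous epithelium markers. These summed to 23.6, 5.5 and 1802 CPM in LNP replicates 1, 2 and 3. The part of squamous tissue in the level of Ly6d was not tested.

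Of the genes shared by dendritic cell types, 12 of 18 were lower after bleomycin and 2 higher (median -1.60). The shares over all tested genes were 18.5% and 15.2%. Mycl, a Myc family factor needed by conventional dendritic cells, fell from 35.3 ± 5.78 to 4.29 ± 1.5 CPM (-3.04 ± 0.33, adjusted p = 0.0003), Btla, an inhibitory receptor also of B and T cells, by 3.20 on the log2 scale, Cbfa2t3 from 122 ± 15.9 to 33.2 ± 11.5 CPM (-1.88 ± 0.26, adjusted p = 0.00076), and Haao from 4.43 ± 0.244 to 0.994 ± 0.251 CPM. In all, 10 of the 18 were called higher in LNP against bleomycin lung (median 1.36). They include Btla at 12.6 ± 4.99 CPM (3.67 ± 0.40, adjusted p = 0.0017), Haao at 4.52 ± 1.15 CPM (2.18 ± 0.29, adjusted p = 0.006), the class II gene H2-Eb2 (3.22 ± 0.44, adjusted p = 0.0069) and Gpr132 (1.16 ± 0.21, adjusted p = 0.016). Without LNP replicate 3 these log2 fold changes were 3.31, 2.00, 3.47 and 1.24. Mycl and Cbfa2t3 were under control in LNP lung, at 12.1 ± 4.29 CPM (-1.54 ± 0.31, adjusted p = 0.016) and 55.3 ± 9.31 CPM (-1.14 ± 0.25, adjusted p = 0.023). Their values without that replicate were -1.41 and -0.97. With 1 library left out, the LNP calls held in 6 of 9 fits for Gpr132 against bleomycin, and in 6 for Mycl and 5 for Cbfa2t3 against control. Without LNP replicate 3, 13 were higher and 1 lower in LNP than in bleomycin lung.

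Genes of mature and migrating dendritic cells went both ways after bleomycin, with 7 of 16 higher and 4 lower (median 0.17). The costimulatory ligands Cd80 and Cd86 rose, by 2.65 ± 0.26 (adjusted p = 0.00021) and 1.51 ± 0.21 (adjusted p = 0.00082), as did the actin bundler Fscn1 (1.85 ± 0.22, adjusted p = 0.00041) and the NF-kB subunit Relb (1.19 ± 0.18, adjusted p = 0.0013). Ccr7, the receptor that leads these cells to lymph nodes, Cd83, Il12b and Apol7c fell, Apol7c in 3 of 9 fits that left out a library and the other 3 in 7. Macrophages express Cd80 and Cd86 too, and the monocyte and macrophage markers given above, 9 of 12 of which rose, had sums of 288 to 339 CPM in control and 1787 to 1886 CPM in bleomycin libraries. Their part in these rises was not tested. Compared with bleomycin lung, LNP lung had higher Cd83 (1.36 ± 0.22, adjusted p = 0.013), Ccr7 (1.29 ± 0.24, adjusted p = 0.019), Il4i1 (3.57 ± 0.79, adjusted p = 0.03) and Il12b (5.57 ± 1.29, adjusted p = 0.036). Il12b, a subunit of interleukin 12, was at 1.6, 1.6 and 0.0871 CPM in LNP libraries, against 0.0655, 0 and 0 CPM in bleomycin and 0.538, 0.605 and 0.515 CPM in control libraries. It was called in 1 of 9 fits that left out a library, the one without LNP replicate 3, where 8 of the 16 genes were higher and 1 lower. Il4i1 was called in 2 of 9, those without control replicate 2 and without LNP replicate 3, Ccr7 in 6 and Cd83 in 7. Against control lung 5 were higher (median 0.92), Fscn1, Cd80, Cd86, Relb and Cacnb3, and 10 without LNP replicate 3. In that comparison 9 of the 12 monocyte and macrophage markers were higher too.

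Of the other ligands and receptors, the GM-CSF receptor genes Csf2ra and Csf2rb rose after bleomycin, by 1.25 ± 0.15 (adjusted p = 0.0004) and 1.93 ± 0.19 (adjusted p = 0.00022), in company with the macrophage markers above. The Ccr7 ligand gene Ccl19 fell from 1.36 ± 0.346 to 0.237 ± 0.0926 CPM (-2.51 ± 0.51, adjusted p = 0.0054), and Ccr6 fell from 0.597 ± 0.444 to 0.0202 ± 0.0349 CPM (adjusted p = 0.049, called in 2 of 9 fits that left out a library). In all, 2 of 11 were higher and 3 lower, counts not far from the 15.2% and 18.5% of all tested genes. In LNP lung Ccl19 was at 1.88 ± 1.17 CPM (2.98 ± 0.52 over bleomycin, adjusted p = 0.015). The LNP libraries held 1.26, 1.15 and 3.22 CPM of it, so replicate 3 alone exceeded the control libraries, at 1.31, 1.04 and 1.73 CPM. Without that replicate the log2 fold change over bleomycin was 2.34. Ccl21a, the other Ccr7 ligand gene, was at 209, 225 and 242 CPM in LNP libraries, above 102, 109 and 125 CPM in bleomycin (1.01 ± 0.14, adjusted p = 0.0082) and above 80.5, 108 and 93.2 CPM in control libraries (1.27 ± 0.14, adjusted p = 0.0015). Near-identical copies of Ccl21a exist in the mouse genome, so its counts are uncertain. Ccl20 was also higher in LNP than in control lung (3.24 ± 0.85, adjusted p = 0.047). That call held in 2 of 9 fits that left out a library, those without control replicate 2 and without LNP replicate 3.

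Signalling and transcription partners were led by Tyrobp, the adaptor that Siglech signals through, which rose after bleomycin from 33.1 ± 5.44 to 94.1 ± 5.55 CPM (1.51 ± 0.16, adjusted p = 0.00027) while Siglech was lower. Spi1, the PU.1 gene, rose by 1.06 ± 0.14 (adjusted p = 0.00058) and Junb by 1.87 ± 0.26 (adjusted p = 0.0008). Jun, a partner of Batf family factors, fell by 0.78 on the log2 scale (adjusted p = 0.0024) and Ikzf1 by 0.83 (adjusted p = 0.0051). Tyrobp and Spi1 are myeloid genes, and 9 of the 12 monocyte and macrophage markers rose as well, with the sums given beside Cd80 and Cd86. Their part was not tested. So 3 of 10 were higher and 2 lower, the latter near the 18.5% of all tested genes. Relative to bleomycin lung, LNP lung had lower Junb (-1.16 ± 0.25, adjusted p = 0.03) and higher Ikzf1 (0.68 ± 0.17, adjusted p = 0.044). With 1 library left out, Junb was called in 4 of 9 fits and Ikzf1 in 2, those without control replicate 2 and without LNP replicate 3. Against control lung Tyrobp and Spi1 were higher and Jun lower, and 9 of the 12 monocyte and macrophage markers were higher.

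All 5 tested relatives of Cd209a in its gene family were called lower after bleomycin (median -3.66). Cd209f went from 3.33 ± 0.573 to 0.259 ± 0.25 CPM (-3.66 ± 0.86, adjusted p = 0.01), Cd209g from 1.32 ± 0.29 to 0.0615 ± 0.0621 CPM (-4.37 ± 0.80, adjusted p = 0.0032), Cd209b from 1.05 ± 0.422 to 0.12 ± 0.0994 CPM (-3.10 ± 0.72, adjusted p = 0.0093), Cd209c from 0.642 ± 0.035 to 0.0218 ± 0.0378 CPM (adjusted p = 0.0096) and Cd209d from 0.867 ± 0.224 to 0.281 ± 0.0581 CPM (adjusted p = 0.03, called in 4 of 9 fits that left out a library). In LNP lung none of the 5 passed the test against bleomycin (median 2.26), where edgeR gave 4 at an unadjusted p under 0.05 and DESeq2 called 3. Cd209f was at 1.12, 1.18 and 0.627 CPM there, above the bleomycin and under the control libraries. These lectin genes are similar in sequence and reads may be divided among them. Cd209e had 66 counts in all and was not tested. Among the relatives of Pla2g2d, 1 of 5 tested was lower after bleomycin, the pancreatic-type Pla2g1b, from 8.47 ± 2.39 to 1.4 ± 0.333 CPM (-2.59 ± 0.47, adjusted p = 0.0031). A count of 1 in 5 is near the 18.5% of all tested genes that were lower.

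**Figure D4:**
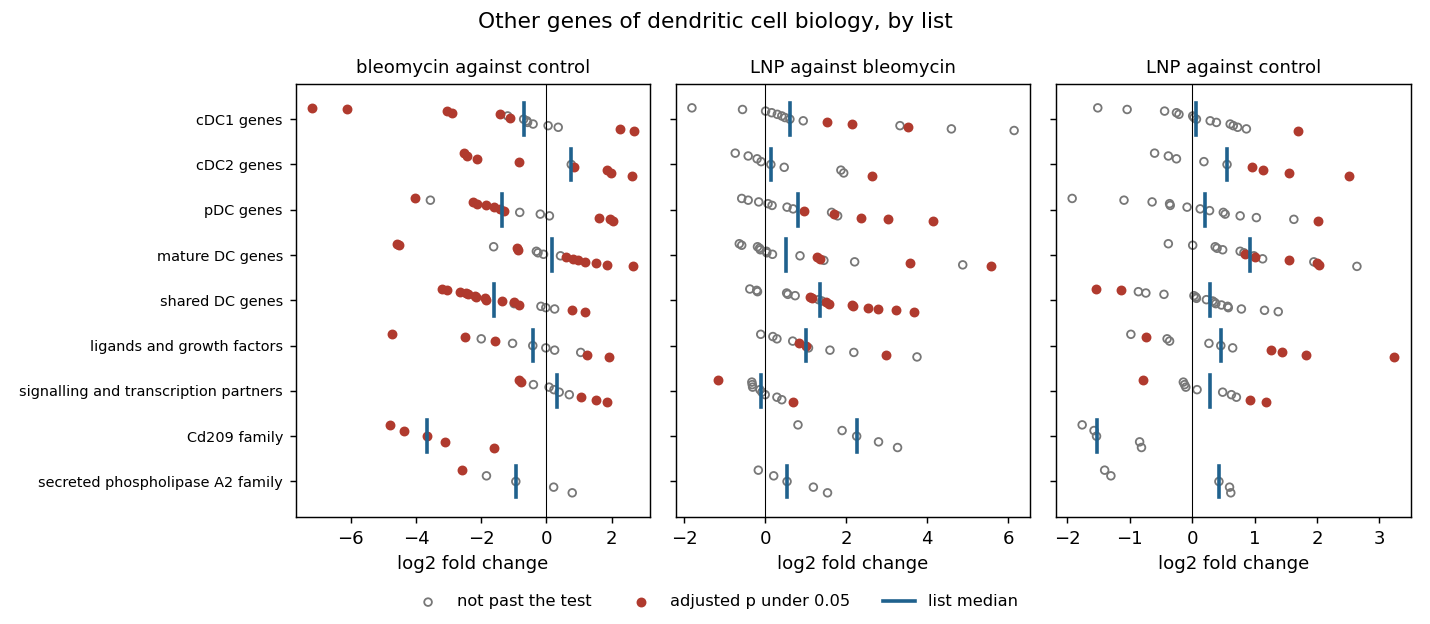
Log2 fold change of each tested gene of the 9 lists on the horizontal axis, by list on the vertical axis and in 1 panel per comparison, with filled points at an adjusted p under 0.05 and a bar at the median of the list. After bleomycin the medians run from -3.66 for the Cd209 family to 0.76 for cDC2 genes, and the lowest point among cDC1 genes, Gpr33, is a fitted value for a gene with no bleomycin count.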

How the data were processed

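The 9 libraries are of mouse whole-lung RNA, 3 each from control, bleomycin and LNP lung, with groups and replicate numbers from the labels. The 9 members and all gene lists were chosen with earlier results of these data known. The first deposited table gives, per the file headers, a whole-number count and an FPKM value for each gene, and another deposited table gives a count for each of 149138 transcripts. Tools named without versions in the submitters' processing notes are fastp, StringTie and edgeR, and the labels' protocols give a strand-marking kit. The aligner, the genome build, the counting and the FPKM scaling used by the authors were not given in the sources used here. Genes that overlap, lie antisense or have near-identical copies thus have uncertain counts.

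Counts of all 9 libraries were fitted together with edgeR 4.0.16 in R 4.3.3 (TMM scaling, filterByExpr, quasi-likelihood F test). The filter left out 11877 of 32671 genes. Calls were made at an adjusted p under 0.05 (Benjamini-Hochberg, over all 20794 tested genes), and every adjusted p is from that test. CPM values use the TMM-scaled totals. Transcript shares of the gene count were compared with exact two-sided permutation tests over libraries, adjusted for no other test. For each list, up to 4 called genes with the smallest p per comparison, and every called gene where 5 or fewer were called, were eligible to be named. Other names, such as Mgl2, Tlr7, Tlr11, Gpr33 and Apol7c, and the comparison with Clec1b, were chosen after their values were seen. Pearson r on log2 CPM (prior count 2) chose the 3 genes nearest to each member, passing over unnamed models, pseudogenes and antigen receptor segments. For a group with no count the fold used 3 counts in the group's summed libraries as its floor, for counting error alone.

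The fits were repeated with DESeq2 1.42.0, with scaling by relative log expression, without the count filter, on only the 2 groups compared, with a replicate block, with limma 3.58.1 for genes averaging at least 0.5 FPKM, on log2(FPKM + 1) and on log2(FPKM + 0.1), and the first of these with no filter, and leaving out each library. All same-group pairs of libraries differed by more than sampling noise (chi-square per degree of freedom at least 30.2). Scripts were tested on simulated counts. Promoters are from RefSeq and transcript structures from GENCODE M21, both on GRCm38, and were matched by gene symbol and transcript identifier. Python 3.11.15, pandas 2.3.3, scipy 1.17.1 and matplotlib 3.10.9 served for tables and plots.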

Additional observations from a re-analysis of the deposited data

How the results depend on the processing

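The direction of single-gene fold changes held in 1760 of 1763 alternative fits of 106 results, and 258 fits lost the call. The exceptions were LNP against control for Xcr1, at -0.10 with the replicate block and from -0.13 to 0.88 with 1 library left out, and for Pla2g2d, from -0.60 without LNP replicate 3 to 1.69 without LNP replicate 1. For Xcr1 the cause was not tested. Member and list counts were less stable, most of all for LNP against bleomycin. The share of all genes called was counted only for the fit that gave the calls and for that without LNP replicate 3. The counts of the other fits below therefore cannot be set against all genes.

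For members lower in bleomycin than in control (7), limma gave 3 on log2(FPKM + 1) and 2 with no filter. Both limma filters at a mean of 0.5 FPKM left 7 of the 9 members to test. For members higher in LNP than in bleomycin lung (5), a fit of only the 2 groups gave 1, limma 2 on log2(FPKM + 1), 3 on log2(FPKM + 0.1) and 1 with no filter. List genes higher in that comparison (27) numbered 45 in DESeq2, 9 with only the 2 groups and 12 in limma with no filter. List genes lower (1) numbered 3 in DESeq2, 0 with only the 2 groups, 2 in limma with either pseudocount and 0 with no filter. For LNP against control, members higher (2) fell to 1 with only the 2 groups, members lower (1) to 0 without the count filter, with only the 2 groups and in all 3 limma fits, and list genes higher (17) rose to 28 in DESeq2. The cause was not tested.

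With 1 library left out, the bleomycin against control counts ran from 4 to 7 members lower, 1 to 1 higher, 26 to 52 list genes lower and 19 to 26 higher. For LNP against bleomycin they ran from 0 to 7 members and 5 to 49 list genes higher, and 0 to 10 list genes lower. For LNP against control they ran from 1 to 3 members and 13 to 32 list genes higher, and 0 to 1 members and 1 to 5 list genes lower. The lone remaining pair of a group is assumed to vary like the other groups.

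Replicate numbers did not pair the samples. Deviations of same-numbered libraries from their group means correlated at -0.02 to 0.04. With the replicate number as a block, LNP against bleomycin gave 3 members and 13 list genes higher and 0 list genes lower, and LNP against control 1 member higher and 0 lower. Differences of transcript shares moved by over 1 SD in 22 of 222 leave-one-out values. Depth limits Siglech, Xcr1, Cd209a and Pla2g2d in bleomycin lung most.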

Other observations

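Control replicate 2 was far under both other control libraries for a set of genes that includes Clec9a. Of 12399 tested genes with a mean of at least 5 CPM, 944 (7.61%) were in this library under 0.6 times the lower of the other control libraries. The same count was 44 for control replicate 1 and 54 for control replicate 3, 26 to 229 for the bleomycin libraries, 61 and 71 for LNP replicates 1 and 2, and 1150 (9.27%) for LNP replicate 3. The genes named here were chosen after their values were seen.

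Among dendritic cell genes, Tlr3, an RNA sensor of cDC1, was at 23.4, 10.3 and 22.1 CPM in control libraries, and Tcf4, the factor that pDC depend on, at 89.9, 45 and 92 CPM. Zeb2 was at 68.5, 35 and 62.7 CPM and Btla at 11.9, 4.96 and 10.5 CPM. Clec9a was at 30.6, 13.6 and 44 CPM, so that the mean of control replicates 1 and 3 was 2.74 times replicate 2. Without control replicate 2 the log2 fold change of bleomycin over control went from 0.09 to -0.18 ± 0.19 for Tcf4, from 0.23 to -0.02 ± 0.11 for Zeb2 and from -0.58 to -0.87 ± 0.29 for Tlr3, so for the first pair of genes the sign depends on this library. Cd209a, Xcr1, Flt3, Siglech, Irf8, Batf3, Zbtb46 and Pla2g2d were not under that ratio in it.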
